A study of Mus musculus with 60 samples.

Results

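The 35 genes described here encode the enzymes, regulators and transport proteins of cholesterol and fatty acid synthesis. They were chosen by name and not by a rule on their measured values, though with earlier results of these data known. They make up 35 of the 48440 genes listed in each count table. They were followed in cultured mouse cancer-associated fibroblasts (CAFs), the activated fibroblasts of tumours, which the labels call tCAFs without explaining the prefix. By role, 5 are pathway regulators, 7 act in the mevalonate pathway, 3 form and cyclise squalene, 8 convert lanosterol to cholesterol, 8 make or desaturate fatty acids, and 4 act in sterol transport or oxysterol synthesis.

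Cells make cholesterol from acetyl-CoA through mevalonate, squalene and lanosterol, and fatty acids from the same precursor through malonyl-CoA. The transcription factors SREBP-2 (Srebf2) and SREBP-1 (Srebf1) switch on the genes of the sterol and the fatty acid branch. When sterols are low, the escort protein SCAP carries them from the endoplasmic reticulum to the Golgi for cleavage, and when sterols are high the INSIG proteins hold them back. Fibroblasts make part of their own cholesterol this way, and oxysterols and cholesterol efflux pumps work in the other direction.

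Bulk RNA sequencing was done on 60 libraries in 8 groups. In multicellular aggregates, CAFs were cultured alone (labelled CAF-GFP in the titles), with 393P cells or with 344SQ cells, 3 replicates each. In a second set of aggregates, 3 replicates each, the CAFs were cultured with 344SQ cells carrying a control shRNA (344SQ_shCTL) or an shRNA against Zeb1 (344SQ_shZEB1). In a Boyden chamber, where a porous membrane parts the cultures, CAFs were alone or across from 393P or 344SQ cells, with 5 biological replicates of 3 technical libraries per group. Both cancer lines derive from lung adenocarcinomas of mice, and 344SQ is known for metastasis in mice while 393P rarely spreads. The Zeb1 shRNA acts in the cancer cells, whereas CAFs were the cells enriched by sorting before lysis, so these libraries do not check the knockdown. Whether replicates of a group began from different fibroblast preparations is not stated, so SDs, SEs and p-values measure only how far these samples vary, which may be technical.

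The aggregate libraries held 757717 to 1258751 counts, the libraries of the shRNA set 739530 to 2144803, and the Boyden sums over technical libraries 4182944 to 8542262. Replicates varied by 16.2% in the aggregates, 61.7% in the shRNA set and 8.58% in the Boyden set (edgeR's coefficient of biological variation), so the Boyden table resolves the smallest differences and the shRNA table only very large ones. Summed fibroblast markers reached 4033 to 8703 CPM (counts scaled to equal library totals) in the aggregates and 7033 to 9340 CPM in the Boyden sums, against 1759 to 4600 CPM in the shRNA set. Of 12 fibroblast markers, 1, Lum, was at 0 in the aggregates of CAFs alone and of CAFs with 393P. The sum of 17 carcinoma markers was 10.1 to 97.8 CPM in the aggregates and 13.6 to 88.9 CPM in the Boyden sums, but 144 to 1734 CPM in the shRNA set, highest in shCTL replicate 3. Adipocyte markers, relevant because adipocytes carry high levels of lipid synthesis genes, summed to at most 2.92 CPM in any library.

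Because the sterol genes are known to share promoter elements read by SREBP, NF-Y and Sp1, the promoters of 4 of the genes that rose together in the aggregates with 393P are shown. They are the regulator Srebf2, Hmgcs1 at the entry to the mevalonate pathway, and the later sterol enzymes Cyp51 and Hsd17b7. RefSeq promoter windows (build GRCm38.p6, 250 bases before to 50 after the start) were matched for 27 of the 35 genes. The stretches printed end before the first annotated transcribed base, and capitals mark matches, on either strand, to the sterol regulatory element form TCACNCCAC, the NF-Y box CCAAT, the Sp1 element GGGCGG or the E-box, which reads CACGTG. They lie at chr15:82147019-82147180 (plus strand) for Srebf2, chr13:119690101-119690350 (plus strand) for Hmgcs1, chr5:4104747-4104947 (minus strand) for Cyp51 and chr1:169969242-169969455 (minus strand) for Hsd17b7.
Srebf2: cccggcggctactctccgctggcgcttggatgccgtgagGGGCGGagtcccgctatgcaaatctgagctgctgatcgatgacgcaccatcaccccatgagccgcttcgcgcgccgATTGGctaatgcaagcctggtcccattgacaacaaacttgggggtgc
Hmgcs1: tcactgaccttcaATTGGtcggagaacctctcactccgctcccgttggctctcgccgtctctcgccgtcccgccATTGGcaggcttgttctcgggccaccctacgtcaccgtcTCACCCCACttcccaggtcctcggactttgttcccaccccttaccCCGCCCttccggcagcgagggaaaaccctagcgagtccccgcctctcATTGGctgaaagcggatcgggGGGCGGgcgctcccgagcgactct
Cyp51: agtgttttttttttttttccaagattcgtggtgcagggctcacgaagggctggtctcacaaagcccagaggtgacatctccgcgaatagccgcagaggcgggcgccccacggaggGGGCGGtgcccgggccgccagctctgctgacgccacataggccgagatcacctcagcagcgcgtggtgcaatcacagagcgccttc
Hsd17b7: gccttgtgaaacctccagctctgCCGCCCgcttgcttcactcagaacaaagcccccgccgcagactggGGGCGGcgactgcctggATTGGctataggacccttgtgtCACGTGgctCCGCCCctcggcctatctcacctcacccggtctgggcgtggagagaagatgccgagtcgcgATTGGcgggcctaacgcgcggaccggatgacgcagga

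The Hmgcs1 window held the sterol regulatory element form 137 bases before the start, between CCAAT boxes at 176 and 45 bases, and it was the only 1 of the 27 genes with that form (3.7%, against 1.44% of all 27025 genes in the RefSeq table). A CCAAT box was in the windows of 20 of the 27 genes (74.1%, against 41.1% of all genes) and a GC box in 22 (81.5%, against 38.2%). Both stood in 1 window for 17 of the 27 genes. Of all 32851 promoters 12.8% held both, a share per promoter and not per gene, so it is not directly comparable. The E-box was in 6 (22.2%, against 8.09%). A match is a description of the letters, and no match says only that these letters are not in this window. The matches in the 4 printed stretches do not overlap one another.

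In the aggregates 26 of the 35 genes had enough counts to be tested. The 9 left out were Fdps, Idi1, Mvd, Mvk and Pmvk of the mevalonate pathway, Ebp and Tm7sf2 of the lanosterol steps, the thiolase gene Acat2 and the cholesterol efflux gene Abcg1, with 0 to 16 counts per library, so changes in them were not detectable at this depth. In the Boyden set 34 were tested and only Abcg1 was not, at 0 to 2 counts per sum. Fdps shares 1124 exon bases with Gm43738 on the same strand and Tm7sf2 shares 532 with Vps51, so their counts are uncertain. Another 9 of the 35 share exon bases with a gene on the opposite strand in the GENCODE M21 annotation. Among them are Scap (985 bases with 5830462I19Rik), Fdft1 (774 with Ctsb), Hmgcs1 (557 with Gm48342), Cyp51 (166 with Akap9) and Ch25h (159 with Gm26902). The strand setting of the counting is not given in the sources used here, so reads of the shared bases may be miscounted in these genes. Changes of the partners are given below for Cyp51 and Ch25h only. Scd1 and Scd2 are close paralogs. In all, 13 genes were called in at least 1 aggregate comparison, 16 in at least 1 Boyden comparison, 22 in either, and 13 in none. Of all genes tested, 13.9% were called in at least 1 of the aggregate comparisons, 23.1% in at least 1 Boyden comparison and 26.8% in either. A gene was called at an adjusted p under 0.05 in edgeR's quasi-likelihood test.

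**Figure D1:**
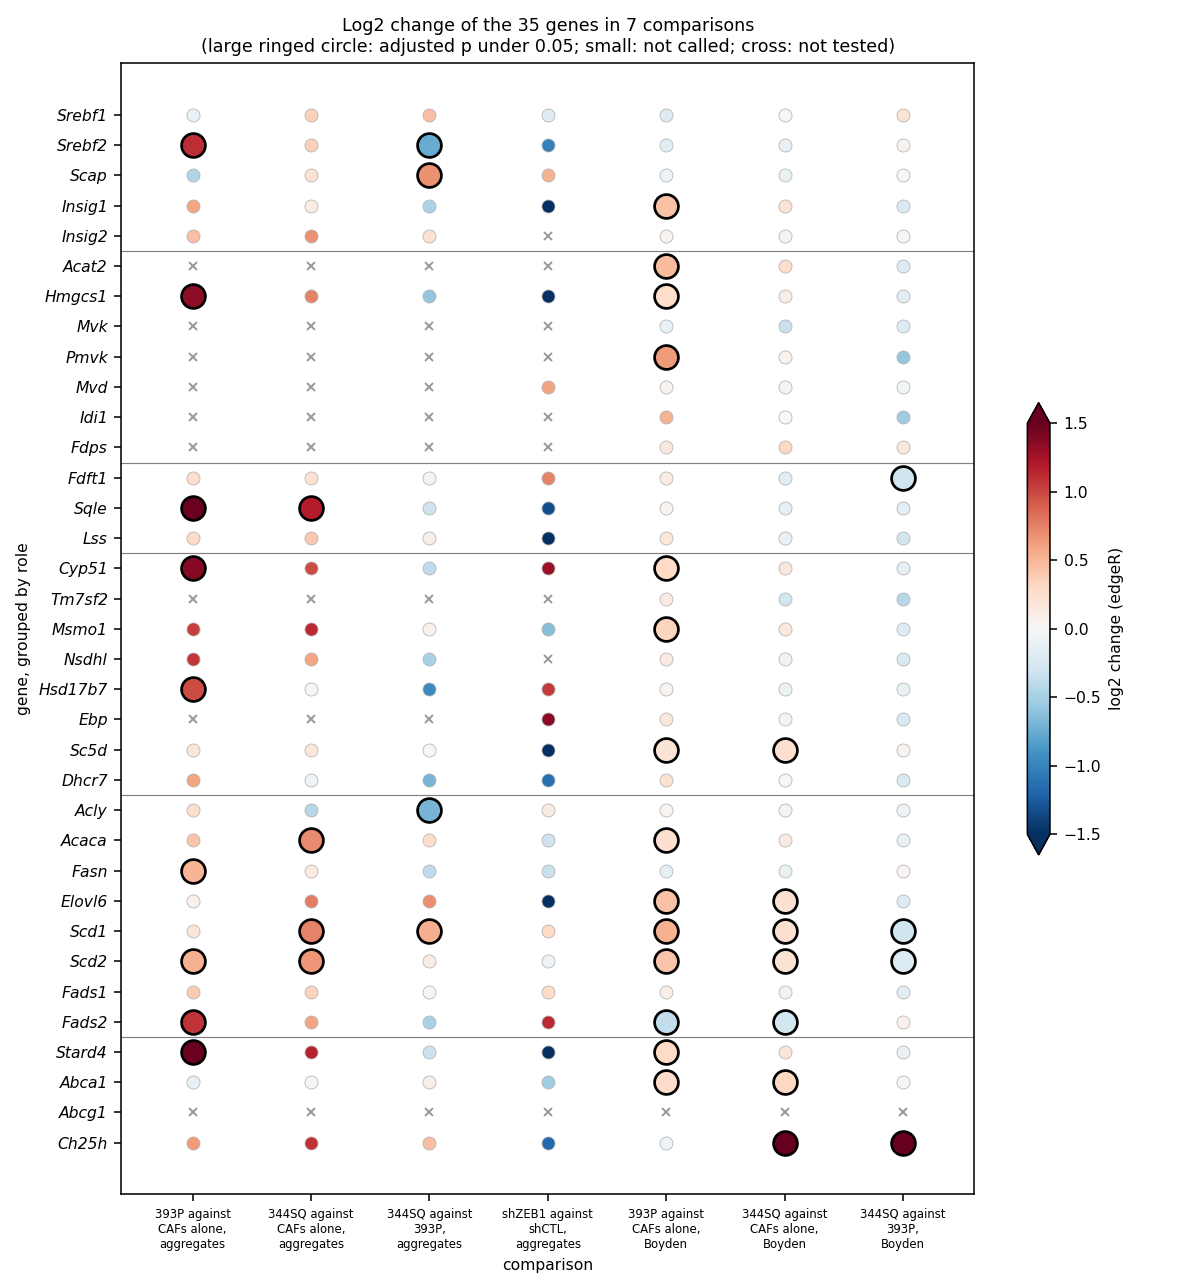
Log2 change (colour, edgeR) of each of the 35 genes (rows, grouped by role) in 7 comparisons (columns). Large ringed circles mark genes called at an adjusted p under 0.05, small circles genes tested and not called, and crosses genes with too few counts. The 9 called genes in the first column are all higher with 393P, and the fourth column, shZEB1 against shCTL, has none.

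In aggregates with 393P, the CAFs had higher levels of the regulator Srebf2, the sterol enzyme genes Hmgcs1, Sqle, Cyp51 and Hsd17b7, the fatty acid genes Fads2, Fasn and Scd2 and the sterol carrier Stard4. Of 26 genes tested, 9 rose and 0 fell, whereas 5.61% of all 7992 genes tested rose and 5.34% fell. The median log2 change of the 26 was 0.525, against -0.002 for all genes. Of the remaining 17 genes, 14 had a positive log2 change and 3 a negative one, none past the threshold. Over all genes tested, 49.8% had a positive log2 change. In 11 of the 26 the 393P values all lay above those of CAFs alone and in 1, Scap, all below, which 13.2% and 12.9% of all genes did.

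Srebf2 encodes SREBP-2, the main activator of the sterol genes (chromosome 15, 82147181 to 82205379). Its level was 50.0, 93.8 and 88.9 CPM in the 3 libraries of CAFs alone and 170, 179 and 145 CPM with 393P. The groups did not overlap, and Srebf2 rose 2.16-fold, a log2 change of 1.11 ± 0.19 (SE, adjusted p = 2.57e-05). By contrast Srebf1, which drives the fatty acid branch, had a log2 change of -0.09 ± 0.23 (adjusted p = 0.882), with CAFs alone at 55.4 to 66.3 CPM and 393P at 40.4 to 77.3 CPM. The escort gene Scap was at 122, 115 and 101 CPM in CAFs alone and at 92.9, 84.1 and 69.0 CPM with 393P. That difference, -0.46 ± 0.18, did not pass (adjusted p = 0.0965), nor did those of the retention genes Insig1 (0.59 ± 0.39, adjusted p = 0.406) and Insig2 (0.45 ± 0.51, adjusted p = 0.693).

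Hmgcs1 encodes the cytosolic synthase that makes HMG-CoA, and it was the only gene of the mevalonate pathway with enough counts to test (chromosome 13, 119690379 to 119708260). It stood at 27.6, 15.9 and 23.0 CPM in CAFs alone and at 66.6, 65.0 and 39.7 CPM with 393P. All 393P libraries were higher, and Hmgcs1 rose by 1.34 ± 0.28 (SE) on the log2 scale (adjusted p = 0.000537).

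Sqle encodes squalene epoxidase, the first oxygen-dependent step toward sterols (chromosome 15, 59315077 to 59331192). It went from 16.4, 23.8 and 19.9 CPM to 64.7, 70.6 and 28.2 CPM, with replicate 3 of 393P close above the highest control. The log2 change was 1.48 ± 0.31 (adjusted p = 0.000548), a 2.80-fold rise. Its neighbours in the pathway did not pass: Fdft1, the squalene synthase gene, had 0.27 ± 0.24 (adjusted p = 0.579) and Lss, the lanosterol synthase gene, 0.30 ± 0.30 (adjusted p = 0.644).

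All 6 genes tested from lanosterol to cholesterol had a positive log2 change, with a median of 1.01, and 2 rose. Of all genes tested, 49.8% were positive and 5.61% rose. Cyp51, the lanosterol demethylase gene (chromosome 5, 4081145 to 4104746), was at 12.9, 31.7 and 15.7 CPM in CAFs alone and at 57.2, 55.5 and 35.5 CPM with 393P. The groups did not overlap, and the rise was 1.37 ± 0.30 on the log2 scale (adjusted p = 0.000941), while Akap9, which shares exon bases with Cyp51 on the other strand, had a log2 change of -0.02. Hsd17b7, whose enzyme reduces the sterol ketone (chromosome 1, 169949535 to 169969241), went from 15.5, 17.2 and 11.5 CPM to 34.7, 26.2 and 26.1 CPM. Its rise of 0.98 ± 0.33 passed narrowly (adjusted p = 0.0461) and lost its call in 10 of 14 alternative analyses, each single left-out library of the 6 included. Nsdhl, the partner decarboxylase gene, differed by 1.07 ± 0.40 without passing (adjusted p = 0.0757), with 8.62, 13.2 and 7.32 CPM against 18.8, 15.1 and 27.2 CPM. Msmo1, the methyl sterol oxidase gene, had a similar difference of 1.04 ± 0.48 (adjusted p = 0.179), carried by replicate 1 at 33.8 CPM, and Sc5d (0.18 ± 0.33) and Dhcr7 (0.61 ± 0.45), which act near the end of the pathway, did not pass either.

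In the fatty acid branch all 8 genes had a positive log2 change and 3 rose, when 49.8% of all genes were positive and 5.61% rose. Fads2, the delta-6 desaturase of polyunsaturated fatty acids (chromosome 19, 10062765 to 10101746), was at 38.8, 60.8 and 52.3 CPM in CAFs alone and at 112, 114 and 91.9 CPM with 393P. The groups were well apart, with a 2.13-fold rise (log2 1.09 ± 0.22, adjusted p = 0.00026). Fasn, the fatty acid synthase gene, rose less, by 0.52 ± 0.16 (adjusted p = 0.0327), from 178, 267 and 254 CPM to 275, 389 and 329 CPM, so that the lowest 393P library lay just above the highest control. Scd2, a stearoyl-CoA desaturase gene, rose by 0.53 ± 0.16 (adjusted p = 0.0241), from 457, 440 and 426 CPM to 633, 732 and 551 CPM. Its paralog Scd1 did not pass, at 0.20 ± 0.17 (adjusted p = 0.561). Nor did Acaca, the acetyl-CoA carboxylase gene (0.43 ± 0.22, adjusted p = 0.234), Acly, which supplies cytosolic acetyl-CoA (0.27 ± 0.19), Elovl6 (0.08 ± 0.34) or Fads1 (0.39 ± 0.19). The calls of Fasn and Scd2 were each lost in 5 of 14 alternatives, in both cases 4 or more of them with 1 library left out.

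Stard4 encodes a soluble protein that carries cholesterol between membranes (chromosome 18, 33199355 to 33213862). It was at 6.89, 7.93 and 8.36 CPM in CAFs alone and at 20.6, 28.5 and 14.6 CPM with 393P. The controls lay close together and below all 393P libraries, with a rise of 1.48 ± 0.40 (adjusted p = 0.00925). The call was lost without CAFs alone replicate 1, without 393P replicate 2 and in DESeq2, with adjusted p up to 0.107. The efflux pump gene Abca1, which sterol excess is known to raise, had -0.12 ± 0.16 (adjusted p = 0.756), and Ch25h, which makes the oxysterol 25-hydroxycholesterol, 0.63 ± 0.66 (adjusted p = 0.68).

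Carcinoma markers also differed between these groups, summing to 10.1 to 15.8 CPM in CAFs alone and to 19.9, 36.5 and 97.8 CPM in 393P replicates 1, 2 and 3. Replicate 3, the library with the most marker counts, had the lowest 393P level of 8 of the 9 genes, Fasn being the other one. The fibroblast marker sum was higher too, at 7319 to 8703 CPM with 393P against 4033 to 6760 CPM in CAFs alone, without overlap. Its members were mixed, and of 11 tested 4 were called higher and 2 lower. Pdgfrb averaged 1612 CPM with 393P against 372 CPM in CAFs alone, but Pdgfra 132 CPM against 479 CPM. The immune marker sum was 24.3 to 34.3 CPM in CAFs alone and 7.25 to 28.2 CPM with 393P, and the 1 immune marker tested was called lower. The part of these marker lists in the rises was not tested. Without CAFs alone replicate 1 or without 393P replicate 2, 5 of the 9 were called. Of the 9 rises, those of Srebf2, Fads2, Hmgcs1, Sqle and Cyp51 held in all 14 alternatives. In these bulk libraries fewer cells of a type and less RNA per cell cannot be told apart.

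**Figure D2:**
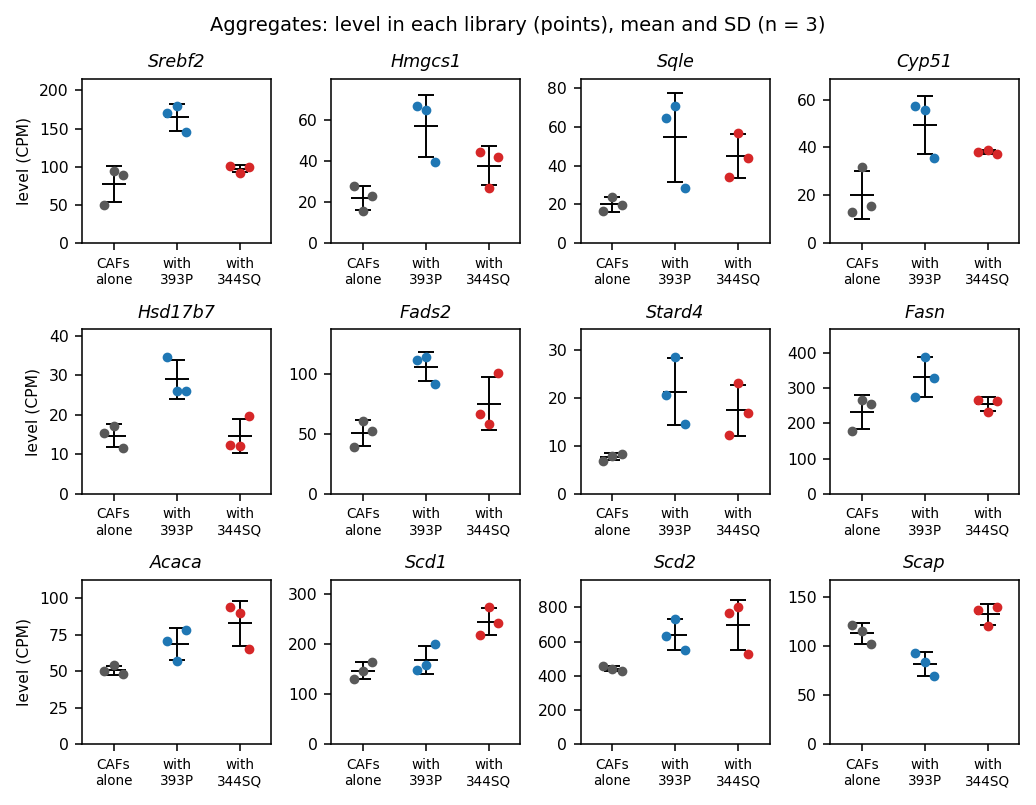
Level in CPM (vertical axis) of 12 genes in the aggregates, 1 point per library, with the mean and SD of 3 libraries per group (CAFs alone grey, with 393P blue, with 344SQ red). Srebf2 is at 145 to 179 CPM with 393P, above both other groups, Sqle is above CAFs alone with both lines, and Scd1 is highest with 344SQ (218 to 273 CPM).

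With 344SQ, the metastatic line, fewer of the genes passed the threshold in the aggregates, and 3 of the 4 called belong to fatty acid synthesis. Of 26 tested, 4 rose and 0 fell, against 3.45% and 2.53% of all genes tested (5.98% either way). As with 393P, 23 of the 26 had a positive log2 change and 3 a negative one, when 49.2% of all genes were positive. The median was 0.495, near the 0.525 with 393P, against -0.007 for all genes. The values lay wholly above those of CAFs alone in 8 genes and below in 0 (10.6% and 10.9% of all genes). This comparison uses the same 3 libraries of CAFs alone as the one with 393P, so their log2 changes are not independent.

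Scd1 encodes the main stearoyl-CoA desaturase of adult tissues (chromosome 19, 44394455 to 44407879). It was at 130, 145 and 164 CPM in CAFs alone and at 218, 273 and 243 CPM with 344SQ. The groups did not overlap, and Scd1 rose by 0.74 ± 0.16 on the log2 scale (adjusted p = 0.00221), in all 14 alternatives too. Scd2 rose by 0.66 ± 0.16 (adjusted p = 0.00699), to 765, 799 and 527 CPM from 426 to 457 CPM. Replicate 3 of 344SQ was the lowest of its group and still above all controls. Acaca, which commits acetyl-CoA to fatty acids, rose from 50.0, 54.2 and 48.1 CPM to 93.6, 89.7 and 65.3 CPM, by 0.70 ± 0.21 (adjusted p = 0.0375). Its call was lost in 7 of 14 alternatives, without any 1 library of CAFs alone among them.

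Sqle was the only sterol synthesis gene called, at 33.9, 57.0 and 43.8 CPM with 344SQ against 16.4 to 23.8 CPM in CAFs alone. All 344SQ libraries were higher, by 1.18 ± 0.32 on the log2 scale (adjusted p = 0.0162). The call was lost without CAFs alone replicate 1 or 3, without 344SQ replicate 2 and in DESeq2. Cyp51 lay just outside the threshold at 0.98 ± 0.31 (adjusted p = 0.0508), with 38.0, 38.8 and 37.3 CPM, all above the controls, and it was called in 4 of 14 alternatives (no filter, removal of rRNA-like and mitochondrial genes, a replicate block, and without CAFs alone replicate 2). Stard4 (1.15 ± 0.42, adjusted p = 0.106), Fads2 (0.61 ± 0.22, adjusted p = 0.11, called without 344SQ replicate 2), Hmgcs1 (0.74 ± 0.30, adjusted p = 0.155) and Msmo1 (1.12 ± 0.48, adjusted p = 0.211) had positive values that did not pass. Srebf2 had 0.36 ± 0.20 (adjusted p = 0.38) at 92.1 to 101 CPM, and Hsd17b7 0.02 ± 0.37 (adjusted p = 0.987). Without CAFs alone replicate 3 the 1 gene called was Scd1, and without CAFs alone replicate 1 or 344SQ replicate 2, 2 genes were called. Carcinoma markers summed to 22.2 to 40.4 CPM with 344SQ against 10.1 to 15.8 CPM in CAFs alone, with counts for 12 and 11 of the 17, and their part in the differences was not tested. Epcam was at 0 in both groups, while Krt8 averaged 2.46 CPM with 344SQ against 0.287 CPM and Cldn4 6.16 CPM against 0.636 CPM. The immune marker sum was lower with 344SQ without overlap, at 17.9 to 23.8 CPM against 24.3 to 34.3 CPM. Its part was not tested either.

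Set directly against each other in the aggregates, the 2 lines differed in 4 of the 26 genes, 2 higher and 2 lower with 344SQ, when 2.28% and 1.91% of all genes did so (4.19% either way). The median log2 change of the 26 was -0.046, against 0.007 for all genes. In 3 genes all 344SQ values lay above those with 393P and in 4 all below, as 8.7% and 9.18% of all genes did. Srebf2 was lower with 344SQ, at 101, 92.1 and 99.8 CPM against 170, 179 and 145 CPM with 393P, without overlap (log2 -0.76 ± 0.18, adjusted p = 0.00778). Scap, whose product escorts SREBP-2, differed the other way, at 137, 120 and 139 CPM against 92.9, 84.1 and 69.0 CPM. It was higher with 344SQ by 0.68 ± 0.17 (adjusted p = 0.0119), again without overlap.

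Acly, which cleaves citrate to cytosolic acetyl-CoA (chromosome 11, 100476353 to 100528000), was at 72.0, 65.5 and 66.2 CPM with 344SQ and at 91.9, 126 and 112 CPM with 393P. The 344SQ libraries were close together and all lower, by -0.70 ± 0.19 on the log2 scale (adjusted p = 0.0248). CAFs alone, at 69.8, 107 and 100 CPM, spanned both, so neither line differed from them in Acly (0.27 ± 0.19 for 393P, -0.43 ± 0.20 for 344SQ, neither past the threshold). Scd1 was higher with 344SQ by 0.54 ± 0.16 (adjusted p = 0.0422), with 218 to 273 CPM against 147 to 200 CPM, and this call was lost in 8 of 14 alternatives. Without 344SQ replicate 3 the 1 gene called was Srebf2, without 393P replicate 2 it was Scap, and without 344SQ replicate 2 or 393P replicate 3, 2 genes were called. Hsd17b7, the next in order, had -0.96 ± 0.33 (adjusted p = 0.103) without overlap.

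In the shRNA set, which asked whether Zeb1 in the 344SQ cells bears on their CAFs, none of the 26 genes tested was called in either direction with edgeR (0% of all 7801 genes tested were), and 3 had an unadjusted p under 0.05. DESeq2 also called 0 of the genes here, but 26 genes in all. The 3 were Lss (-3.16 ± 1.10, adjusted p = 0.777), Hmgcs1 (-2.63 ± 1.0, adjusted p = 0.8) and Insig1 (-1.74 ± 0.82, adjusted p = 0.8).

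Library shCTL replicate 3 stood apart. Lss was at 27.3, 7.09 and 313 CPM in shCTL replicates 1, 2 and 3, and at 7.02, 13.2 and 18.6 CPM in shZEB1. Hmgcs1 was at 23.9, 6.30 and 222 CPM in shCTL and at 19.3, 10.3 and 10.3 CPM in shZEB1. Srebf2 was at 106, 77.2 and 602 CPM in shCTL and at 158, 80.7 and 147 CPM in shZEB1. For these genes, and for Stard4 (5.47, 3.15 and 131 CPM) and Fasn (92.3, 134 and 585 CPM), shCTL replicate 3 lay above the other 5 libraries. Cyp51, high with the others in the aggregates, did not follow: it was at 12.3, 2.36 and 0.967 CPM in shCTL.

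The same library held 1734 CPM of carcinoma markers, against 168 and 144 CPM in shCTL replicates 1 and 2 and 151, 1166 and 606 CPM in shZEB1, and the lowest fibroblast marker sum, 1759 CPM. In shZEB1 replicate 2, the next highest for carcinoma markers, Srebf2, Hmgcs1, Lss and Stard4 were within the range of the 4 remaining libraries and Fasn, at 271 CPM, was above it, and the part of other cells in these values was not tested. Without shCTL replicate 3, the log2 change of Lss became -0.42 (adjusted p = 0.946) and that of Hmgcs1 -0.16 (adjusted p = 0.981), and the median over the genes tested moved from -0.319 to 0.448. Insig1, at 16.4, 18.1 and 33.8 CPM in shCTL and at 10.1, 4.40 and 5.13 CPM in shZEB1, kept a value of -1.34 without it (adjusted p = 0.76). Insig1 and Sc5d were the 2 genes whose groups did not overlap, both lower in shZEB1, when 5.49% of all genes were lower and 6.18% higher in that way. With no filter on low counts, 1 of the 35 genes, Lss, was called lower (adjusted p = 0.0119), among 60 genes in all.

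**Figure D3:**
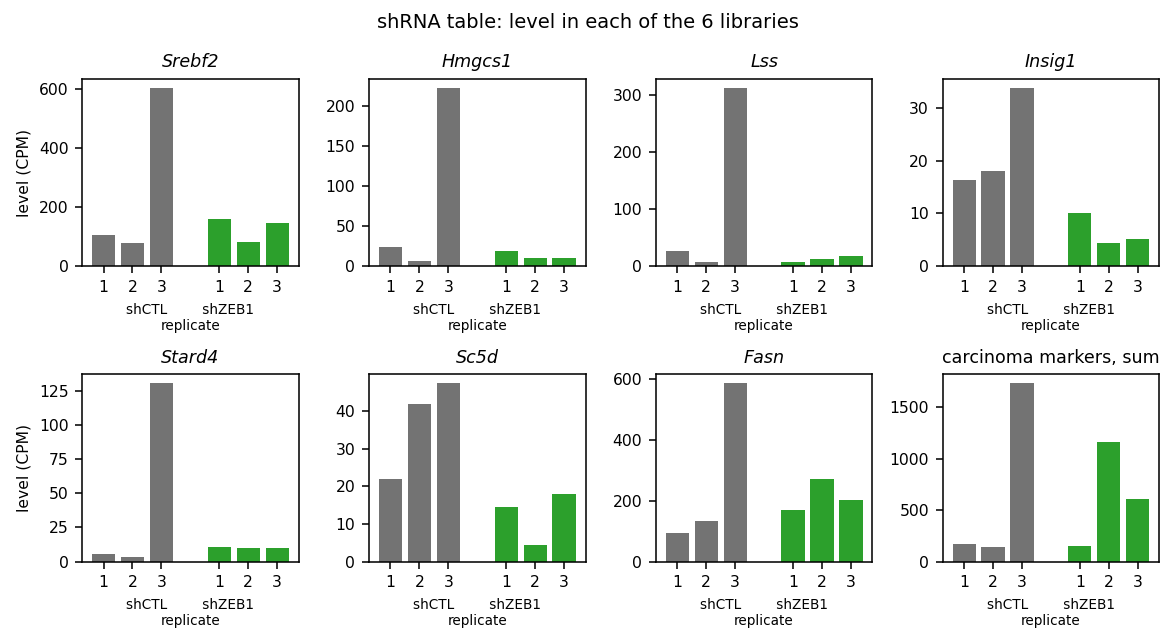
Level in CPM of 7 genes and of the summed carcinoma markers in each of the 6 libraries of the shRNA set (bars, shCTL grey and shZEB1 green, numbered by replicate). The bar of shCTL replicate 3 is the tallest in all 8 panels, at 602 CPM for Srebf2 and 313 CPM for Lss.

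Across the membrane of the Boyden chamber with 393P, 13 of 34 genes rose and 1 fell, when 7.68% of all 14040 genes tested rose and 7.91% fell. The median log2 change was 0.166, against 0.001 for all genes. The values of CAFs with 393P lay wholly above those of CAFs alone in 10 genes and wholly below in 1 (6.07% and 6.3% of all genes).

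Among the genes called, the stearoyl-CoA desaturase genes Scd1 and Scd2 had the smallest adjusted p. Scd1 was at 394, 386, 370, 368 and 388 CPM in the 5 replicates of CAFs alone and at 528, 520, 577, 523 and 601 CPM with 393P. The ranges were far apart, with a 1.44-fold rise (log2 0.53 ± 0.06, adjusted p = 1.49e-07). Scd2 was at 420, 403, 408, 382 and 420 CPM and at 544, 531, 532, 528 and 598 CPM, a rise of 0.43 ± 0.06 (adjusted p = 3.95e-06). Both held in all 21 alternatives. Elovl6, which elongates palmitate to stearate, rose by 0.44 ± 0.08 (adjusted p = 0.000181), from 38.3 to 47.4 CPM in CAFs alone to 54.4 to 63.2 CPM, and Acaca by 0.25 ± 0.05 (adjusted p = 0.0021), from 93.2 to 99.7 CPM to 110 to 119 CPM.

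Fads2 was the 1 gene that fell, although it had risen in the aggregates. It was at 133, 121, 121, 117 and 124 CPM in CAFs alone and at 95.8, 96.7, 93.1, 90.2 and 101 CPM with 393P. All 5 co-cultures were lower, by -0.37 ± 0.08 on the log2 scale (adjusted p = 0.00159). Fasn had -0.13 ± 0.10 (adjusted p = 0.419), Acly 0.04 ± 0.06 and Fads1 0.10 ± 0.06, none past the threshold.

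In the mevalonate pathway 3 of 7 genes rose, when 7.68% of all genes did. Acat2, the thiolase that joins 2 molecules of acetyl-CoA, rose by 0.48 ± 0.11 (adjusted p = 0.00393), from 20.3 to 29.3 CPM to 30.0 to 38.4 CPM. Hmgcs1 rose by 0.27 ± 0.07 (adjusted p = 0.0116), at 66.2, 76.2, 69.8, 60.3 and 72.7 CPM in CAFs alone and 79.5, 86.0, 77.0, 77.1 and 97.5 CPM with 393P. The lowest co-culture lay just above the highest control, and the call was lost without 393P replicate 5. Pmvk, the phosphomevalonate kinase gene, rose by 0.63 ± 0.17 (adjusted p = 0.0105) at a low level, 4.02 to 5.13 CPM against 4.96 to 9.71 CPM, with overlap, and its call too was lost without 393P replicate 5. Idi1, the isopentenyl diphosphate isomerase gene, had 0.53 ± 0.20 (adjusted p = 0.07), and Mvd, Mvk and Fdps did not pass (0.06 ± 0.23, -0.12 ± 0.15 and 0.15 ± 0.32).

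Of the later sterol genes, Msmo1 rose by 0.34 ± 0.07 (adjusted p = 0.00124), from 76.2 to 90.1 CPM to 95.8 to 116 CPM. Cyp51 rose by 0.30 ± 0.08 (adjusted p = 0.0116), from 52.8 to 72.9 CPM to 75.2 to 90.7 CPM. Sc5d rose by 0.20 ± 0.06 (adjusted p = 0.0175), and this small change was lost without CAFs alone replicate 4 or 393P replicate 1. All 8 genes from lanosterol to cholesterol had positive values, with a median of 0.194, when 50.1% of all genes were positive. The squalene steps held none that passed: Sqle had 0.02 ± 0.06 (adjusted p = 0.842), at 120 to 128 CPM and 116 to 139 CPM, Lss 0.18 ± 0.08 and Fdft1 0.12 ± 0.07.

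Among the regulators only Insig1, itself a known SREBP target, rose, by 0.44 ± 0.14 (adjusted p = 0.0286), with 16.2 to 24.4 CPM against 19.6 to 31.9 CPM. The ranges overlapped, and the call was lost in 9 of 21 alternatives, 6 of them with 1 replicate left out. Srebf2 was at 64.0 to 84.2 CPM in CAFs alone and at 64.0 to 71.4 CPM with 393P (-0.17 ± 0.08, adjusted p = 0.147). Stard4 rose by 0.30 ± 0.08 (adjusted p = 0.00939), from 39.3 to 50.6 CPM to 48.1 to 58.1 CPM. Abca1, the cholesterol efflux pump gene, rose by 0.29 ± 0.06 (adjusted p = 0.00131), from 109 to 126 CPM to 129 to 151 CPM, without overlap.

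With 344SQ across the membrane, 6 of 34 genes rose and 1 fell, when 7.36% and 7.39% of all genes did, and the median of 0.015 stood beside 0.006 for all genes. The values lay wholly above those of CAFs alone in 7 genes and wholly below in 0 (4.85% and 5.08% of all genes, 9.93% either way). The change that stood out was in Ch25h, cholesterol 25-hydroxylase (chromosome 19, 34473778 to 34475164), whose product 25-hydroxycholesterol is known to hold SREBP back. It was at 2.68, 1.37, 2.36, 3.26 and 3.74 CPM in CAFs alone and at 14.3, 20.8, 19.0, 16.4 and 19.5 CPM with 344SQ. Every 344SQ replicate lay several times above every control, a 6.63-fold rise (log2 2.73 ± 0.18, adjusted p = 1.85e-12). With 393P it was at 2.37, 2.72, 2.21, 2.59 and 2.75 CPM, within the range of CAFs alone (-0.09 ± 0.23, adjusted p = 0.835). Gm26902, a noncoding gene that shares 159 exon bases with Ch25h on the opposite strand, also rose with 344SQ, by 1.35 on the log2 scale (adjusted p = 0.00113), and reads of the shared bases cannot be told apart.

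Abca1 rose with 344SQ by 0.31 ± 0.06 (adjusted p = 0.000668), to 154, 134, 144, 145 and 133 CPM from 112, 126, 109, 110 and 117 CPM. The groups did not overlap. Scd1 rose by 0.24 ± 0.06 (adjusted p = 0.0048), to 430 to 493 CPM, and Scd2 by 0.22 ± 0.06 (adjusted p = 0.00775), to 449 to 518 CPM, both without overlap with CAFs alone. Sc5d rose by 0.25 ± 0.06 (adjusted p = 0.00417), to 163 to 183 CPM from 137 to 155 CPM. Elovl6 rose by 0.23 ± 0.08 (adjusted p = 0.0409), to 48.8 to 56.6 CPM, a call lost in 14 of 21 alternatives. Fads2 fell, by -0.29 ± 0.08 on the log2 scale (adjusted p = 0.0117), at 102, 128, 81.9, 91.6 and 97.6 CPM. Replicate 2 lay within the range of CAFs alone, and without replicate 3 the call was lost. The sterol enzymes Hmgcs1 (0.10 ± 0.08), Cyp51 (0.17 ± 0.08), Sqle (-0.14 ± 0.06) and Msmo1 (0.15 ± 0.07) did not pass. The 344SQ sums were the shallowest, 4182944 to 5857925 counts. Carcinoma markers summed to 21.2 to 33.6 CPM in CAFs alone, 24.6 to 50.4 CPM with 344SQ and 13.6 to 88.9 CPM with 393P in this format. The fibroblast marker sum was lower with both lines without overlap, at 8884 to 9340 CPM in CAFs alone, 7033 to 7663 CPM with 344SQ and 7679 to 8005 CPM with 393P. The endothelial marker sum was lower as well, at 13.1 to 17.9 CPM, 6.46 to 10.6 CPM and 7.60 to 11.0 CPM in the same order. The fibroblast list was mixed: of 11 tested, 2 were called higher and 5 lower with each line. The part of these marker lists in the differences was not tested.

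Between the lines across the membrane, 1 gene was higher and 3 were lower with 344SQ, when 2.57% and 1.45% of all genes were. The groups did not overlap in 4 genes, 1 higher (Ch25h) and 3 lower (Acaca, Scd1 and Scd2), when 2.65% and 1.81% of all genes did so (4.46% either way). Ch25h was higher by 2.82 ± 0.19 (adjusted p = 4.79e-12). Scd1 was lower with 344SQ by -0.29 ± 0.06 (adjusted p = 0.00132), whereas in the aggregates it was higher. That contrast between the formats was not tested. Fdft1, the squalene synthase gene, was lower by -0.29 ± 0.07 (adjusted p = 0.0169), at 133, 165, 132, 147 and 148 CPM with 344SQ against 164, 165, 193, 166 and 200 CPM with 393P. The ranges met at replicate 2 of 344SQ. Scd2 was lower by -0.21 ± 0.06 (adjusted p = 0.0268), at 449 to 518 CPM against 528 to 598 CPM. The calls of Fdft1 and Scd2 were each lost in 7 of 21 alternatives, without 344SQ replicate 1, 344SQ replicate 3 or 393P replicate 5 in both cases. Over all 34 genes, 26 had a lower and 8 a higher value with 344SQ than with 393P, with a median of -0.166 against 0.004 for all genes. Of all genes tested, 51% had a higher value.

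**Figure D4:**
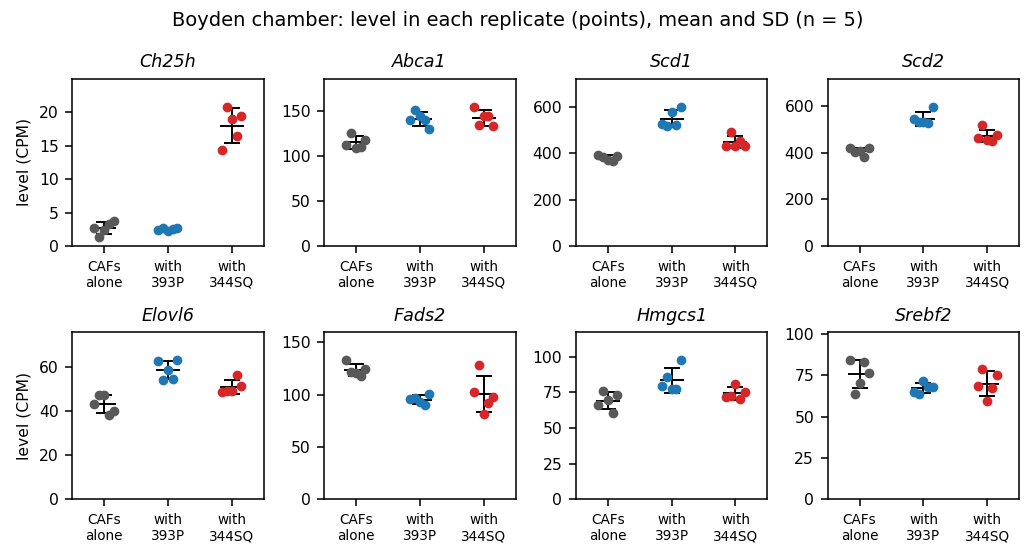
Level in CPM (vertical axis) of 8 genes in the Boyden chamber, 1 point per biological replicate, with the mean and SD of 5 replicates per group. Ch25h is high only with 344SQ (14.3 to 20.8 CPM), Scd1, Scd2 and Elovl6 are highest with 393P, and Fads2 is lower with both lines.

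Whether contact in aggregates and the membrane gave different changes was tested by fitting both tables jointly. The joint fit used 1 estimate of spread per gene for both formats, with a coefficient of biological variation of 9.5%. The aggregates alone had 16.2% and the Boyden set alone 8.58%. The joint SEs and p-values can therefore be too small for the aggregates. With 393P the joint SE was below that in the aggregates alone for every gene called in this test except Fasn. These were Sqle, Fads2, Srebf2, Stard4, Cyp51, Hmgcs1, Hsd17b7 and Nsdhl. The change with 393P was larger in the aggregates for 9 of 34 genes and smaller for 0, when 5.29% and 3.69% of 15193 genes were (8.97% either way). Sqle differed most, by 1.56 ± 0.26 on the log2 scale (adjusted p = 1.54e-05), with Fads2 at 1.55 ± 0.21 (adjusted p = 1.47e-07) and Srebf2 at 1.38 ± 0.18 (adjusted p = 1.06e-07). Stard4 (1.29 ± 0.35), Cyp51 (1.17 ± 0.27), Hmgcs1 (1.14 ± 0.25), Hsd17b7 (1.01 ± 0.28), Nsdhl (1.0 ± 0.32) and Fasn (0.73 ± 0.19) followed, with adjusted p from 0.000952 to 0.0365. Fads2 moved in opposite directions, rising in contact and falling across the membrane.

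For 344SQ the change was larger in the aggregates for 5 genes and smaller for 0, when 2.63% and 2.15% of all genes were (4.78% either way). Without aggregate 344SQ replicate 2 this count was 2, and without aggregate 344SQ replicate 1 or CAFs alone replicate 1 or 3 it was 3. They were Sqle (1.36 ± 0.28, adjusted p = 0.000749), Fads2 (0.96 ± 0.22, adjusted p = 0.00318), Acaca (0.61 ± 0.17, adjusted p = 0.0267), Scd1 (0.55 ± 0.15, adjusted p = 0.0157) and Scd2 (0.48 ± 0.15, adjusted p = 0.0402). For Sqle, Acaca, Scd1 and Scd2, but not Fads2, the joint SE was below that in the aggregates alone. Their p-values can therefore be too small. Ch25h differed by -1.59 ± 0.57 without passing (adjusted p = 0.117), with a 95% interval from -2.77 to -0.42. It was called smaller in the aggregates in 3 of 21 alternatives, with no filter, without aggregate CAFs alone replicate 2 and without aggregate 344SQ replicate 3. In the aggregates with 344SQ it was at 10.3, 23.0 and 52.2 CPM against 19.8, 5.29 and 13.6 CPM in CAFs alone, with overlap. Scd1 with 393P gave -0.26 ± 0.15 (95% interval -0.56 to 0.04), so its rise across the membrane was not shown to differ from its value in contact. The formats also differ in table, depth, ribosomal RNA-like counts (18.8% to 24.8% of counts in the aggregates, 0.292% to 0.521% in the Boyden sums) and carcinoma markers, which cannot be told apart from the format.

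**Figure D5:**
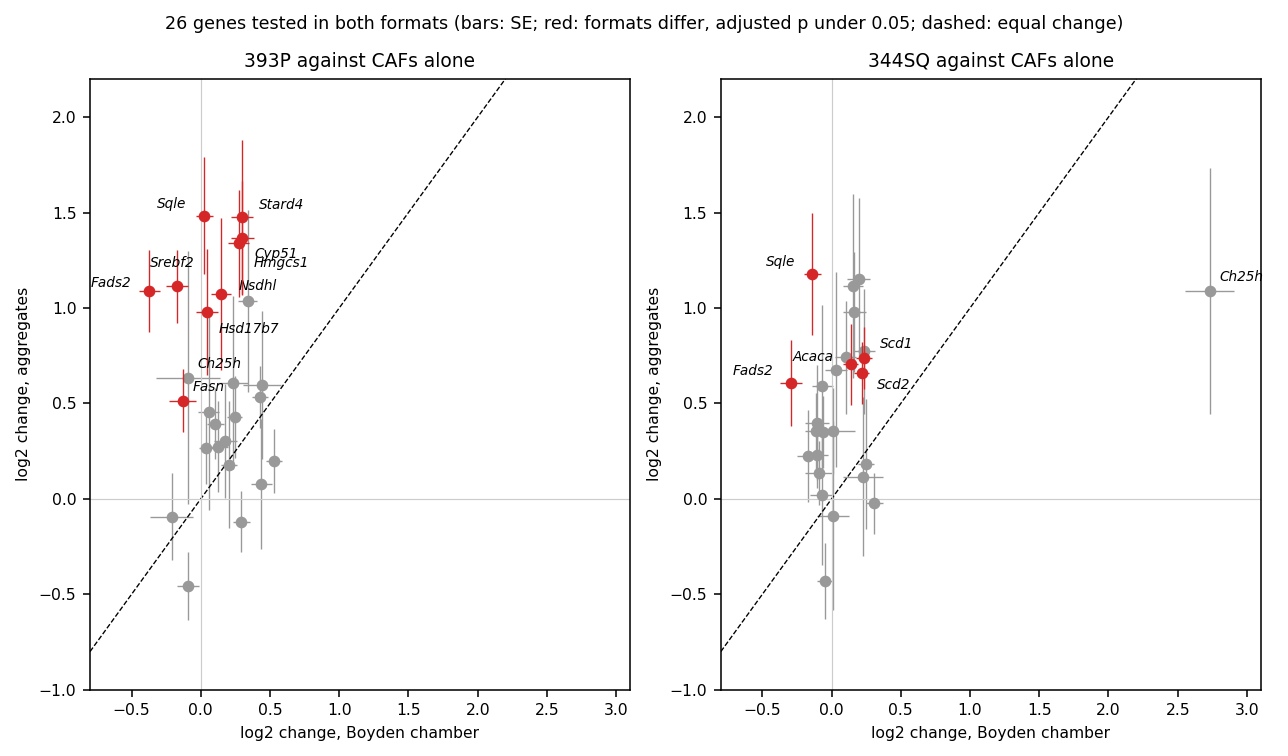
Log2 change against CAFs alone in the Boyden chamber (horizontal) and in the aggregates (vertical) for the 26 genes tested in both, with SE bars, for 393P (left) and 344SQ (right). Red points are genes whose change differed between formats, 9 for 393P, which lie above the dashed line of equal change, and 5 for 344SQ. Ch25h is the point far to the right for 344SQ, at 2.73 in the Boyden chamber.

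Of 28 other genes of sterol synthesis and handling, 23 were tested in the aggregates. With 393P, 1 rose and 3 fell (17.4%, against 10.9% of all genes tested). With 344SQ 0 changed in either direction, when 5.98% of all genes did. With 393P the oxysterol hydroxylase gene Cyp7b1, which clears 25-hydroxycholesterol, fell by 3.80 ± 0.59 on the log2 scale, from 24.1, 15.9 and 27.2 CPM to 0, 3.17 and 1.04 CPM, while the lipoprotein receptor genes Vldlr and Scarb1 fell by 1.26 ± 0.23 and 0.74 ± 0.25. Across the membrane Cyp7b1 rose with 344SQ by 1.08 ± 0.24 (adjusted p = 0.00235), the group in which Ch25h was high. Soat1, which stores cholesterol as esters, rose there with both lines, by 0.22 ± 0.06 with 393P and 0.33 ± 0.06 with 344SQ. In that format 5 of 27 rose and 2 fell with 393P, and 3 rose and 1 fell with 344SQ. These were 25.9% and 14.8% of those tested, against 15.6% and 14.7% of all genes.

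Of 29 other genes of fatty acid synthesis and esterification, 23 were tested in the aggregates. There 1 rose and 1 fell with 393P and 2 rose and 1 fell with 344SQ. These were 8.7% and 13% of those tested, against 10.9% and 5.98% of all genes. Gpam, the first enzyme of glycerolipid synthesis, fell with both lines, from 79.3, 85.9 and 89.9 CPM to 21.6, 32.5 and 16.7 CPM with 393P (-1.81 ± 0.25) and to 28.8, 37.6 and 34.5 CPM with 344SQ (-1.34 ± 0.24). Degs1, a sphingolipid desaturase gene, rose with both, by 0.77 ± 0.22 and 0.80 ± 0.23. Acsl4, which activates arachidonate, rose with 344SQ by 1.07 ± 0.19. In the Boyden chamber 2 of 27 rose and 3 fell with 393P, and 1 rose and 3 fell with 344SQ. The shares were 18.5% and 14.8%, against 15.6% and 14.7% of all genes. Gpam fell there too, by 0.31 ± 0.07 with 393P and 0.43 ± 0.07 with 344SQ.

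Of 25 genes of fatty acid oxidation and lipid droplets, 19 were tested in the aggregates. With 393P 1 rose and 3 fell, and with 344SQ 0 rose and 1 fell. These were 21.1% and 5.26% of those tested, against 10.9% and 5.98% of all genes. Cpt1a, the gate of fatty acids into mitochondria, fell from 230, 197 and 268 CPM to 90.1, 92.0 and 109 CPM with 393P (-1.26 ± 0.17) and to 159, 122 and 136 CPM with 344SQ (-0.73 ± 0.16), without overlap. Mgll, the monoacylglycerol lipase gene, rose with 393P in the aggregates by 1.82 ± 0.36, to 31.9, 47.6 and 65.8 CPM from 12.5 to 14.5 CPM. Across the membrane Mgll fell, by 0.57 ± 0.07 with 393P and 0.96 ± 0.07 with 344SQ, so the difference between formats was 2.46 ± 0.30 for 393P (adjusted p = 8.42e-09). In the Boyden chamber 0 of 22 rose and 6 fell with 393P, and 1 rose and 4 fell with 344SQ. The shares were 27.3% and 22.7%, against 15.6% and 14.7% of all genes. In the shRNA set none of these 3 lists had a gene called.

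Summed over all 35 genes by total counts, the aggregates of CAFs alone held 1916 to 2096 CPM, those with 393P 2315 to 2849 CPM and those with 344SQ 2322 to 2753 CPM. Both co-cultures lay above CAFs alone. The most abundant genes weigh most in such a sum. In the aggregates of CAFs alone these were Scd2, Abca1, Fasn and Scd1, with mean levels of 441, 323, 233 and 147 CPM. In the Boyden chamber the sums were 2945 to 3132 CPM, 3313 to 3646 CPM and 3040 to 3334 CPM, so that 393P lay above CAFs alone and 344SQ overlapped it. In the shRNA set the sum was 1659, 1596 and 4009 CPM in shCTL and 2648, 1939 and 2175 CPM in shZEB1.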

How the data were processed

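RNA was measured in 60 libraries from mouse CAF cultures. The authors deposited raw counts per gene for each library in 3 tables of 48440 genes, made with STAR, HTSeq and build mm10, per the submitters' processing notes; versions, annotation release and strand setting: not given in the sources used here. CAFs were enriched by sorting before lysis, per the labels' protocols. Counts of the 3 technical libraries were summed within each Boyden replicate. Each table was fitted with group means in edgeR 4.0.16 (R 4.3.3): filterByExpr, TMM scaling, robust quasi-likelihood fits and 2-sided tests, with Benjamini-Hochberg adjustment over all genes tested, called at an adjusted p under 0.05. Log2 changes carry their SE. The difference between formats was tested in a joint fit of 9 aggregate libraries and 15 Boyden sums. CPM levels are TMM-scaled, but marker sums and the 35-gene sums use total counts.

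The scripts were tested on simulated data. Positions come from GENCODE M21 and promoters from RefSeq GRCm38.p6. The members, lists, tests and the naming rule were chosen with earlier results of these data known. Values per library are given for genes called in the aggregates, the 8 of smallest p in a Boyden comparison and the 3 of smallest p in the shRNA set; of other lists up to 4 called genes per comparison are named. Alternatives were DESeq2 1.42.0, no filter on low counts, scaling by RLE or by the upper quartile, only the 2 groups compared, a replicate block, each replicate left out and technical library 1 alone; the fit without robust spread, removal of rRNA-like and mitochondrial genes, and technical libraries 2 and 3 alone were added after seeing the data. Figures were drawn with matplotlib. Of the genes this rule names, 1 is not reported here.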

Additional observations from a re-analysis of the deposited data

Results flagged for a closer look

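The size of the change against CAFs alone differed between the aggregates and the Boyden chamber for 14 results, each by a test of the difference itself in edgeR's joint fit. With 393P the difference, aggregates minus Boyden on the log2 scale, was 1.14 for Hmgcs1, 1.38 for Srebf2, 1.56 for Sqle, 1.17 for Cyp51, 1.0 for Nsdhl, 1.01 for Hsd17b7, 1.29 for Stard4, 0.73 for Fasn and 1.55 for Fads2. With 344SQ it was 1.36 for Sqle, 0.61 for Acaca, 0.55 for Scd1, 0.48 for Scd2 and 0.96 for Fads2. The format cannot be told apart from the table and its depth. The joint fit used 1 estimate of spread per gene for both formats, so its p-values can be too small for the more variable aggregates.

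In the Boyden chamber with 393P, replicate 5 lay far from the other 4 for Scd2, at 598 CPM with the next at 544 CPM and the lowest at 528 CPM, a gap of 0.77 of the whole range. It was 1 of 72 gene and group sets examined, and Dixon's 95% critical value, which it passed, is by definition passed by chance in about 5% of sets.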

How the results depend on the processing

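Of 1095 values under an alternative, nearly all of results that were called, 930 kept their side of the threshold, 164 lost a call and 0 reversed direction. Over all comparisons, 17 pairs of a gene among the 35 and a comparison without a call gained one under 1 to 4 alternatives. Of 160 counts of genes called under an alternative, 133 stayed within 1.5 times the count reported. DESeq2 called 2 genes for 344SQ against CAFs alone and 2 for 344SQ against 393P in the aggregates, 4 each in edgeR. No filter gave 1 for shZEB1 against shCTL. With 1 technical library in place of the sum of 3, the Boyden counts for 393P, 344SQ and 344SQ against 393P were 6, 3 and 1 for technical library 1 and 2, 1 and 2 for technical library 2. Technical library 3 gave 10 for 393P, 3 for 344SQ and 1 for 344SQ against 393P. The counts reported were 14, 7 and 4. These settings use fewer counts.

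With each replicate left out in turn, the genes called numbered 5 to 7 for 393P (9 reported), 1 to 4 for 344SQ and 1 to 4 for 344SQ against 393P in the aggregates, 0 to 0 for shZEB1, 11 to 15, 5 to 10 and 2 to 6 in the same order in the Boyden chamber, and 6 to 9 and 2 to 6 for the difference between formats with 393P and 344SQ. The libraries behind the lowest aggregate counts are named with those results; in the Boyden chamber 2 genes differed between the lines without 344SQ replicate 1 or 3 or 393P replicate 5, and 6 without 344SQ replicate 2. Deviations of replicates with the same number correlated at -0.03 to 0.072 in the aggregates, -0.03 to 0.126 in the shRNA set and -0.303 to 0.265 in the Boyden set. Those with different numbers gave -0.083 to 0.08, -0.15 to 0.085 and -0.366 to 0.414 in the same order. These values do not show a pairing by number, and a shared preparation or batch was not tested. A replicate block called 8, 5 and 4 genes in the aggregates, 0 for shZEB1 and 13, 6 and 3 in the Boyden chamber.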
